A study of Mus musculus with 4 samples.

Results

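Genes of fatty acid synthesis and uptake were followed in RNA from mouse mammary tumours that had lost 1 copy of Elf5 or kept both. The set holds 10 genes, picked by symbol from the 51826 gene rows of the deposited count table through the GENCODE annotation of mouse build GRCm38. All 10 were found, and all 10 passed the filter on low counts that left 21607 genes for testing. The 2 HET libraries came from C3-T+ tumours of genotype Elf5+/-, and the 2 WT libraries from C3-T+ tumours of genotype Elf5+/+. The C3-T transgene was thus present in every tumour. Tumours were dissociated and sorted with antibodies to CD45, CD31 and TER119, which mark leukocytes, endothelial cells and erythroid cells, to enrich tumour cells. The labels give no strain, age or transgene promoter. Both HET titles share the number 3211, while the WT titles differ (3210 and 4972), so HET 1 and HET 2 may be tumours of 1 animal. The labels do not name the animals. A p-value here sets the difference between genotypes against the spread between libraries of a genotype, estimated partly from all genes tested. That spread may be technical.

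Cells make fatty acids from citrate that leaves the mitochondrion. ATP citrate lyase (Acly) splits it to acetyl-CoA, acetyl-CoA carboxylase (Acaca) turns this into malonyl-CoA, and fatty acid synthase (Fasn) joins the units into palmitate. Elovl6 lengthens palmitate to stearate, and the desaturases Scd1 and Scd2 put in a double bond. SREBP-1, the product of Srebf1, is the transcription factor that drives these enzymes in response to insulin or to low sterols. The uptake route works from outside: lipoprotein lipase (Lpl) frees fatty acids from circulating triglyceride, CD36 carries them across the plasma membrane, and the binding protein FABP4 takes them up in the cytosol. In the mammary gland the first route is strong in the milk-secreting epithelium, whereas Cd36 and Fabp4 are also well known from adipocytes, capillary endothelium and macrophages.

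The targeted gene was checked before the others. Elf5 stood at 5.39 and 10.6 CPM (counts scaled to library size by the TMM method) in HET 1 and HET 2, against 35.6 CPM in WT 1 and 4.70 CPM in the library labelled WT 2. The last value lay below both HET libraries, and whole-gene counts cannot show whether a deleted part is missing, so every HET over WT direction rests on that label. Totals ran from 12695132 to 15307939 counts per library, and a count of 0 allows up to 0.239 CPM in the shallowest scaled library (3 counts, counting error only). Summed markers of tumour epithelium (8 genes, such as Epcam and Krt8) were at 2478 and 2255 CPM in HET and at 3617 and 3336 CPM in WT, so epithelial RNA was plentiful in each library. Fibroblast markers (8 genes, such as Col1a1) summed to 3917 and 4911 CPM in HET, against 6525 CPM in WT 1 and 21747 CPM in the library labelled WT 2, above the epithelial sum in every library. Erythroid and skeletal muscle markers summed to at most 15.7 and 13.8 CPM. The library labelled WT 2 stood apart from the others: 44.5% of gene rows had no count there, against 29.9% to 31.3% elsewhere. Every pair of libraries differed by far more than counting error (chi-square per degree of freedom of 23.5 to 60.0). HET 1 against HET 2 gave 30.5, above HET 1 against WT 1 (27.9) and HET 2 against WT 1 (23.5). WT 1 against the library labelled WT 2 gave 44.9, so pairs of the same genotype were not the closest.

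To show what the regulatory sequence of these genes looks like, 1 window each is printed: the 250 bases before the RefSeq transcription start of 3 enzymes (Fasn, Acly, Elovl6), of the regulator Srebf1 and of the uptake receptor Cd36. Capitals mark CCAAT boxes (CCAAT, the motif of NF-Y) and GC boxes (GGGCGG, the motif of SP1), found on either strand. NF-Y and SP1 are known partners of SREBP at promoters of lipid synthesis genes.
Fasn (chr11:120824548-120824797, minus strand): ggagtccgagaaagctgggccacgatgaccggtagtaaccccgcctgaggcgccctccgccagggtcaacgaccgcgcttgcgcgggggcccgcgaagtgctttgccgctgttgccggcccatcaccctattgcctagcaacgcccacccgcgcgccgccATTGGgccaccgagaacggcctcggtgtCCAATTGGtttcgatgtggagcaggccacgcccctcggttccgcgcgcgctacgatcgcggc
Acly (chr11:100528001-100528250, minus strand): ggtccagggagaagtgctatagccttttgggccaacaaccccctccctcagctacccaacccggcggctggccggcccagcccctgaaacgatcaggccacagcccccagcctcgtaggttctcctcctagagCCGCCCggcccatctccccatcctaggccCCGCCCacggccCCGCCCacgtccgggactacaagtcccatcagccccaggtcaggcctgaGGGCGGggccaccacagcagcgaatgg
Srebf1 (chr11:60220628-60220877, minus strand): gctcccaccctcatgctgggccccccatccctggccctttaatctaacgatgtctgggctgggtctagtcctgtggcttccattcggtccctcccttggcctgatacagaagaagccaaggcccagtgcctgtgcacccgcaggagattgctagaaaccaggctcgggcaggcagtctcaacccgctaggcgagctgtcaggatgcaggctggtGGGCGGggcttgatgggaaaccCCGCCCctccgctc
Elovl6 (chr3:129532136-129532385, plus strand): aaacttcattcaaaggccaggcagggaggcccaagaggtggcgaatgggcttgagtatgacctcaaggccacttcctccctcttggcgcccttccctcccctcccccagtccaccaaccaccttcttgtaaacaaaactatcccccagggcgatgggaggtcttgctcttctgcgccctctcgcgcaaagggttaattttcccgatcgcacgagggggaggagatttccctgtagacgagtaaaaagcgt
Cd36 (chr5:17835897-17836146, minus strand): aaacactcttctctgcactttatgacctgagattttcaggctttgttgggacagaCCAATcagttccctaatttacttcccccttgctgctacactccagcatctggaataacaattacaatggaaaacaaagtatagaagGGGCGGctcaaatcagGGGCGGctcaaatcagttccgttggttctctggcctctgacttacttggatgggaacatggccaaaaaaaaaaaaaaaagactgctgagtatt

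The windows are from build GRCm38.p6, and RefSeq windows were found for 6 of the 10 genes. Fasn held 3 CCAAT boxes, at 90, 62 and 59 bases before the start, of which the pair nearest to the start overlap. Acly held 4 GC boxes and no CCAAT box, and this Srebf1 window, the second of 3 listed starts, held 2 GC boxes. Cd36 held 1 CCAAT box and 2 GC boxes, and Elovl6 held neither motif. The Acaca window (chr11:84195188-84195437), not printed, held neither motif as well. It lies within the span of the annotated gene, as do the printed Cd36 and Srebf1 windows, so the annotation has starts upstream of these windows. The other Srebf1 windows, not printed, each held 1 CCAAT box, and the third also held 2 GC boxes. Among 32851 windows of the same length, 33.8% had a CCAAT box and 32.7% a GC box, so each is common. The sterol regulatory element as TCACNCCAC (1.05% of windows) and the E-box CACGTG (6.02%) were searched on both strands and had 0 matches in the windows of these 6 genes, which says only that these letters are not in these windows.

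None of the 10 genes differed between genotypes by the test. In the edgeR quasi-likelihood fit 0 of 10 had a Benjamini-Hochberg adjusted p under 0.05, on a background of 0% (0 of 21607 genes tested). The smallest adjusted p among them was 0.986. At an unadjusted p under 0.05 there were 0 of the 10 genes and 817 of all genes (3.78%). DESeq2 called 0 of the 10 and 134 genes in all (0.62%), and limma-voom called 0 of the 10 and 0 in all. The median log2 fold change (HET over WT throughout) was 0.22 for the 10 genes and 0.04 for all genes tested. Without the library labelled WT 2, 0 of the 10 genes passed, beside 9 of all genes (0.0417%), and without WT 1, 2 of the 10 passed (Cd36 and Fabp4), beside 657 of all genes (3.04%). In 3 genes both HET libraries lay above both WT libraries (19.6% of all genes did), and in 2 genes both lay below (15.9% did). That is 5 of 10 genes whose groups did not overlap, against 35.5% of all genes tested.

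**Figure D1:**
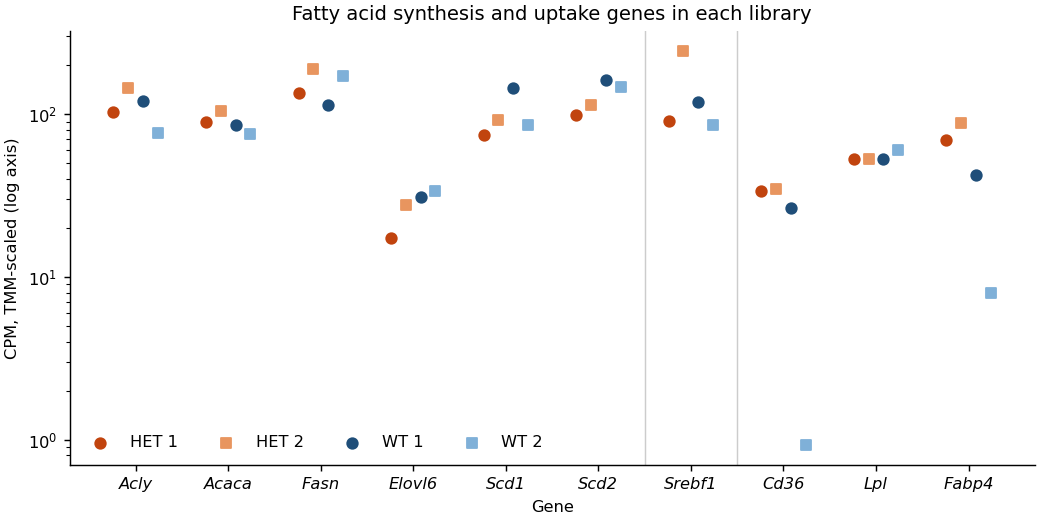
Each point is 1 library's level of the gene named on the x axis, in TMM-scaled CPM on a log axis, with HET libraries in orange and WT libraries in blue. Vertical lines separate enzymes, the regulator Srebf1 and the uptake genes. Lpl lies between 52.6 and 60.3 CPM in all 4 libraries, while Cd36 (0.925 CPM) and Fabp4 (7.98 CPM) are far lower in the library labelled WT 2.

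The enzymes that supply and join the carbon units were similar in both genotypes. Acly (chromosome 11, 100476353 to 100528000) stood at 103 and 145 CPM in HET and at 120 and 76.8 CPM in WT. Its groups overlapped, and its log2 fold change was 0.34 ± 0.36 (SE, n = 2 libraries per genotype; 95% interval -0.53 to 1.20). The Acly value was 0.69 without WT 1, 0.05 without the library labelled WT 2 and 0.02 without HET 2. Acaca (chromosome 11, 84129672 to 84401651) stood at 89.8 and 104 CPM in HET and at 86.2 and 75.6 CPM in WT. Both HET libraries were above both WT libraries, yet the distance from HET 1 to WT 1 was smaller than the spread within either genotype (log2 fold change 0.26 ± 0.28, SE; interval -0.43 to 0.95; 0.17 without the library labelled WT 2 and 0.09 without HET 2). Fasn (chromosome 11, 120805846 to 120824547) stood at 135 and 188 CPM in HET and at 114 and 172 CPM in WT. The Fasn values of the genotypes interleaved, and the log2 fold change of 0.18 ± 0.35 (SE; interval -0.68 to 1.03) turned to -0.09 without WT 1 and to -0.16 without HET 2. For these 3 enzymes the intervals leave room for a change of up to 1.20 on the log2 scale upward or 0.68 downward.

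The enzymes that lengthen and desaturate palmitate had lower values in HET, without passing the test. Scd2 (chromosome 19, 44293674 to 44306864), the desaturase isoform best known from brain and from lipid synthesis early in life, stood at 98.3 and 114 CPM in HET and at 162 and 147 CPM in WT. The groups did not overlap, and the gap between them was wider than the spread within each (log2 fold change -0.54 ± 0.28, SE; interval -1.23 to 0.15; edgeR adjusted p = 0.986, unadjusted p = 0.104). Elovl6 (chromosome 3, 129532355 to 129638495) stood at 17.4 and 27.5 CPM in HET and at 31.1 and 33.6 CPM in WT. Its groups did not overlap either, but HET 1 lay well below HET 2 (log2 fold change -0.53 ± 0.35, SE; interval -1.38 to 0.32), and the value was -0.29 without HET 1 and -0.96 without HET 2. Scd1 (chromosome 19, 44394455 to 44407879), the main desaturase of liver and fat, stood at 74.8 and 91.9 CPM in HET and at 145 and 86.1 CPM in WT. Its groups overlapped because the library labelled WT 2 was at the HET level, and the log2 fold change of -0.47 ± 0.36 (SE; interval -1.34 to 0.40) was -0.80 without that library and -0.05 without WT 1.

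Within a library, the balance of the 2 steps can be read without any scaling between libraries. The sum of Scd1, Scd2 and Elovl6 divided by the sum of Fasn, Acaca and Acly was 0.58 and 0.535 in HET 1 and HET 2, against 1.06 in WT 1 and 0.823 in the library labelled WT 2. The genotypes did not overlap in this ratio. It was formed after the values of single genes were seen, so it has no test. The summed tumour epithelial markers given above were also lower in both HET libraries than in either WT library, and their part in the Scd2, Elovl6 and Scd1 values and in this ratio was not tested. Among the further synthesis genes named whatever their value, Slc25a1, the mitochondrial citrate carrier, and Elovl1 lay lower in both HET libraries. Slc25a1 stood at 13.7 and 22.6 CPM in HET against 29.8 and 27.6 CPM in WT. Acss2 and Acacb lay higher in both HET libraries, and the others overlapped between genotypes.

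**Figure D2:**
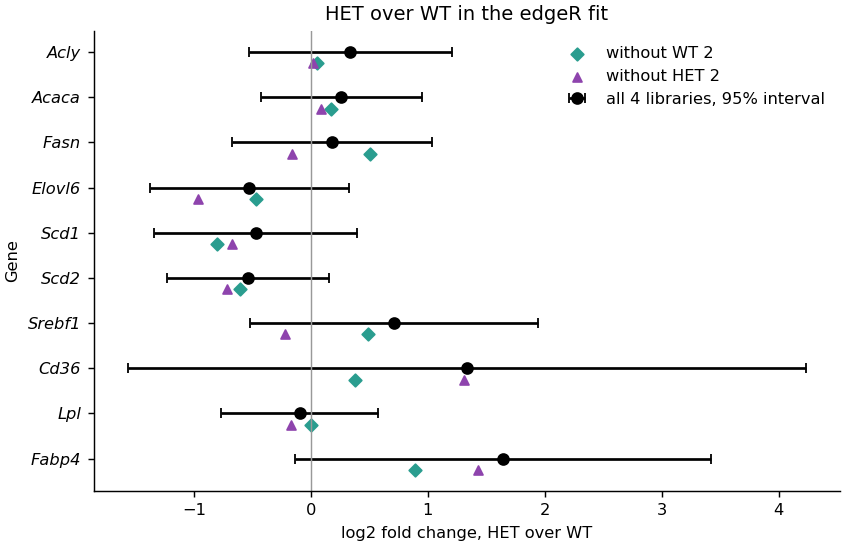
Black points are log2 fold changes of HET over WT (x axis) for each gene (y axis) in the edgeR fit with 2 libraries per genotype, with 95% intervals as bars, and coloured symbols give the value without the library named in the legend. Every interval includes 0, and leaving out HET 2 turns Fasn and Srebf1 to the other side of 0.

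Srebf1, the regulator, was high in 1 HET library alone. Srebf1 (chromosome 11, 60199089 to 60222581) stood at 91.3 CPM in HET 1 and 244 CPM in HET 2, against 119 CPM in WT 1 and 85.9 CPM in the library labelled WT 2. HET 1 lay between the WT libraries, so the log2 fold change of 0.71 ± 0.50 (SE; interval -0.52 to 1.94; edgeR adjusted p = 0.986) rests on HET 2, and it was -0.22 without that library. HET 2 was also the highest library for Fasn, Acaca and Acly, but not for Scd1, Scd2 or Elovl6. Secretory alveolar markers were far higher in HET 2 too, with summed levels of 59.7 CPM in HET 1, 561 in HET 2, 27.0 in WT 1 and 3.92 in the library labelled WT 2, of which Csn3 gave 520 CPM in HET 2. Of these 6 markers 2 were at 0 in HET 2 and 3 in the library labelled WT 2. The part of the secretory markers in the Srebf1 value was not tested. Counts are per gene, so the SREBP-1a and SREBP-1c starts cannot be told apart.

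Scd1 and Scd2 lie in the same gene cluster on chromosome 19 and have closely related coding sequence. Reads that fall in identical stretches have to be shared out by the counting tool. The longest stretch identical in both coding sequences is 147 bases, at bases 523 to 669 of the Scd1 coding sequence, and it is printed from the GENCODE transcripts to show how much a read can have in common with both genes.
Scd1 and Scd2 shared coding stretch: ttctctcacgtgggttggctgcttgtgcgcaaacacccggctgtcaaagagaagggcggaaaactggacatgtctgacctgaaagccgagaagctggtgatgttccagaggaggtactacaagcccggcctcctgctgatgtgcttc

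Over the whole Scd1 transcript, 5.26% of 31-base words also occur in Scd2, and 4.66% of Scd2 words occur in Scd1, so most of either transcript can be told apart. Of the Scd1 words, 5.92% also occur in Scd3 and 3.46% in Scd4. Scd3 and Scd4, in the same cluster, were at most 3.25 CPM in any library. Scd1 took 41.7% and 43.6% of counts over the 4 desaturase genes in HET 1 and HET 2, against 46.5% in WT 1 and 36.4% in the library labelled WT 2 (exact Clopper-Pearson 95% intervals of 39.9 to 43.6, 41.7 to 45.4, 44.9 to 48.0 and 34.7 to 38.0, counting error only). Both HET shares lay between the WT shares, so the split did not separate the genotypes. With the 4 genes summed into 1 row the desaturases stood at 179 and 211 CPM in HET and at 312 and 237 CPM in WT. The groups did not overlap, and the log2 fold change was -0.49 ± 0.31 (SE; interval -1.25 to 0.27; edgeR adjusted p = 0.987).

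**Figure D3:**
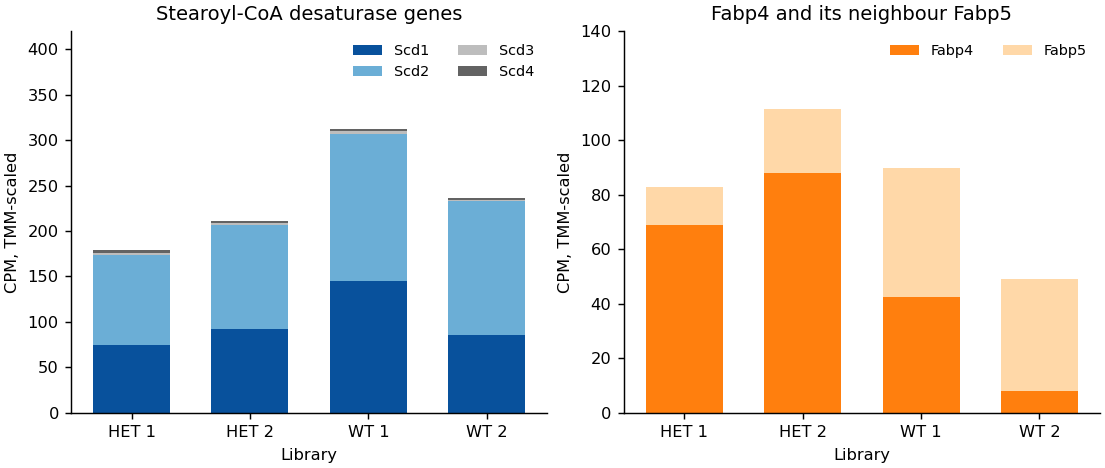
Bars start at 0 and stack the TMM-scaled CPM (y axis) of the 4 desaturase genes (left) and of Fabp4 and Fabp5 (right) in each library (x axis). Desaturase totals are lower in both HET libraries, and Fabp4 is the larger part of its pair in HET but the smaller part in WT.

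Of the uptake genes, Lpl was at the same level everywhere while Fabp4 and Cd36 were not. Lpl (chromosome 8, 68880491 to 68907448) stood at 52.6 and 53.1 CPM in HET and at 52.8 and 60.3 CPM in WT. Its highest value was 1.14 times its lowest, the narrowest range of the 10 genes over these libraries. The log2 fold change was -0.10 ± 0.27 (SE; interval -0.77 to 0.57), and 0.0019 without the library labelled WT 2. Fabp4 (chromosome 3, 10204088 to 10208576) stood at 68.9 and 88.0 CPM in HET, against 42.4 CPM in WT 1 and 7.98 CPM in the library labelled WT 2. Both HET libraries were above both WT libraries, and the WT libraries differed from each other by a larger factor than WT 1 did from either HET library. Fabp4 had the smallest unadjusted p of the 10 genes (0.065), with a log2 fold change of 1.64 ± 0.73 (SE; interval -0.14 to 3.42; edgeR adjusted p = 0.986). It was 0.89 without the library labelled WT 2 (adjusted p = 0.899) and 3.30 without WT 1 (adjusted p = 0.0119, where 3.04% of all genes were called). With no filter beyond 1 count Fabp4 passed as well (1.61, adjusted p = 0.024, with 0.752% of all genes called).

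Cd36 (chromosome 5, 17781690 to 17888801) had the widest range of the 10 genes. It stood at 33.8 and 34.6 CPM in HET, against 26.3 CPM in WT 1 and 0.925 CPM in the library labelled WT 2, where 13 counts were recorded. WT 1 was close to both HET libraries, and the distance lay almost wholly in 1 library. The log2 fold change of 1.33 ± 1.19 (SE; interval -1.57 to 4.23; edgeR adjusted p = 0.986) was 0.38 without the library labelled WT 2 and 5.20 without WT 1 (adjusted p = 0.00394).

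Endothelial, macrophage and pan-leukocyte markers were low in the library labelled WT 2, as Fabp4 and Cd36 were. Summed endothelial markers (10 genes, such as Cdh5 and Kdr) were at 314 and 547 CPM in HET, against 375 CPM in WT 1 and 71.6 CPM in the library labelled WT 2, where Cldn5 and Gpihbp1 were at 0. Summed macrophage markers (10 genes, such as Adgre1 and C1qa) were at 884 and 576 CPM in HET, against 835 and 84.2 CPM in WT, with none at 0. Pan-leukocyte markers (8 genes, such as Ptprc) summed to 381 and 301 CPM in HET, against 346 and 14.6 CPM in WT. Of all genes tested, 9.37% (2024) were, in the library labelled WT 2, under 25% of the lowest of the other 3 libraries. Cd36 and Fabp4 were the 2 of the 10 genes among them, beside 7 of 10 endothelial, 9 of 10 macrophage and 8 of 8 pan-leukocyte markers, and 0 of 8 epithelial markers. The part of these cells in the Fabp4 and Cd36 values was not tested, and in sorted bulk tissue fewer cells of a type and less RNA per cell cannot be told apart.

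Adipocyte markers were low in every library. The 10 genes summed to 18.6 and 18.8 CPM in HET and to 17.6 and 9.54 CPM in WT, of which Lipe alone gave 7.92 and 11.4 CPM in HET and 7.56 and 4.70 CPM in WT. Adipoq, the defining adipocyte hormone gene, had 6 and 2 counts in HET and 7 and 5 counts in WT, and Cidec was at 0 in HET 2. Fabp4 counts in the same libraries were 1061 and 1186 in HET and 533 and 112 in WT. The adipocyte sum, like Fabp4 and Cd36, was lowest in the library labelled WT 2. Of the 6 adipocyte markers tested, 0 fell under the cutoff used above for genes low in that library, whereas Fabp4 and Cd36 did. The part of adipocytes in the Fabp4 and Cd36 values was not tested.

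**Figure D4:**
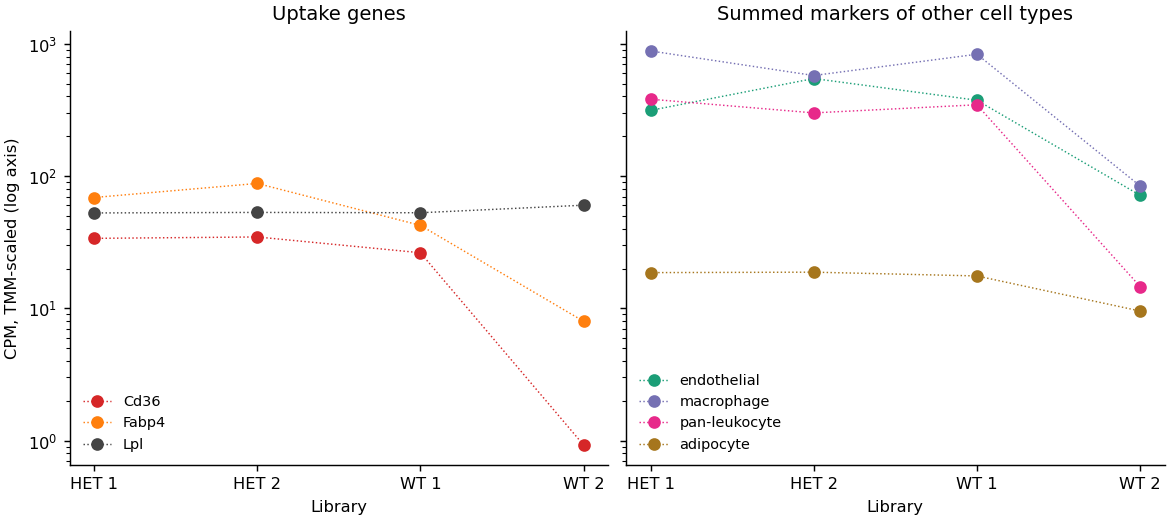
Points give TMM-scaled CPM on a shared log axis for the 3 uptake genes (left) and for summed markers of 4 other cell types (right) in each library (x axis), and dotted lines only guide the eye. Cd36, Fabp4 and all 4 marker sums are lowest in the library labelled WT 2, where Lpl is at 60.3 CPM, its highest value.

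Fabp5, the neighbour of Fabp4 on chromosome 3 and a fatty acid binding protein of epithelia, ran the other way. It stood at 14.0 and 23.4 CPM in HET and at 47.6 and 41.0 CPM in WT. The groups did not overlap, and the log2 fold change was -1.25 ± 0.37 (SE; unadjusted p = 0.014, edgeR adjusted p = 0.986). It kept its sign without each library in turn, between -1.73 and -0.97. Fabp4 made up 83.2% and 79.0% of counts over both genes in HET, against 47.1% and 16.3% in WT. The transcripts share 0% of 31-base words. Their summed level was 82.8 and 111 CPM in HET and 90.0 and 48.9 CPM in WT, and the sum overlapped between genotypes (log2 fold change 0.48 ± 0.39, SE; edgeR adjusted p = 0.986).

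Levels of different genes were compared per length. As CPM per kilobase of merged exons, means over the 4 libraries were 24.01 ± 13.2 for Srebf1, 23.9 ± 5.35 for Scd2, 21.05 ± 5.41 for Acly and 20.3 ± 6.38 for Scd1 (SD, n = 4 libraries of both genotypes). Fasn followed at 13.9 ± 3.10 and Fabp4 at 11.5 ± 7.73. Cd36 (6.67 ± 4.40), Lpl (5.22 ± 0.35), Acaca (5.21 ± 0.69) and Elovl6 (4.26 ± 1.11) were the lowest. The library ranges of every neighbouring pair in this order overlapped. Srebf1 came first through HET 2 alone (43.4), since it was below Scd2 in the other 3 libraries, at 16.2 against 18.0 in HET 1, 21.2 against 29.7 in WT 1 and 15.2 against 26.9 in the library labelled WT 2. The order depends on the length used, because the merged exons of Fabp4 cover 4489 bases while its principal transcript has 896. With the median length of coding transcripts, Acaca led at a mean of 99.98, since its median coding transcript has 889 bases against 17074 of merged exons, followed by Fabp4 (57.8) and Scd1 (38.5), and Cd36 was the lowest at 8.89. With principal transcript lengths, a choice made after seeing the data, Fabp4 led at 57.8 ± 38.7, with 76.9 and 98.2 in HET and 47.3 and 8.90 in WT. Srebf1 (31.5 ± 17.3), Acly (25.3 ± 6.51), Scd2 (23.9 ± 5.36) and Scd1 (20.6 ± 6.46) came after it, and Elovl6 (4.61 ± 1.20) was the lowest.

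The genes whose profile over the 4 libraries lay nearest to each member were taken from 165 tested genes of the lipid and marker lists, by the mean absolute difference of centred log2 CPM. Acly lay nearest to the lipase gene Pnpla2 (0.014) and to Acadl (0.033), and Acaca to Lpin1 (0.03) and the adipocyte marker Plin1 (0.055). Scd1 lay nearest to the sterol regulator Srebf2 (0.07). Scd2 lay nearest to the lipid droplet gene Plin3 (0.04) and Elovl6 to Tecr (0.076), which acts in the same elongation cycle. Lpl lay nearest to Usf2 (0.07) and Fasn to Idh1 (0.11), while Srebf1 had no near match (Acadvl, 0.25). Cd36 lay nearest to the leukocyte genes Ptprc (0.11) and Coro1a (0.14), and Fabp4 to the endothelial genes Egfl7 (0.18) and Cldn5 (0.19). The second matches not given here were all genes of the lipid lists. With 4 libraries many profiles coincide, so these are descriptions only.

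Other genes of lipid metabolism were read from 4 further lists, and 0 of the 106 members tested passed in edgeR, DESeq2 or limma-voom. At an unadjusted p under 0.05 in edgeR there were 2 (Acsl4 and Fabp5), against 3.78% of all genes tested. The synthesis list had 33 of 35 genes tested, 19 above and 14 below 0, with a median log2 fold change of 0.06. The regulator list had 24 of 24 tested, 9 above and 15 below 0 (median -0.11), the uptake list 17 of 25 (10 above, 7 below, median 0.05), and the list of storage and breakdown 32 of 35 (20 above, 12 below, median 0.04). The median of all genes tested was 0.04.

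Among synthesis genes, Acsl4, which activates arachidonate and other polyunsaturated fatty acids, stood at 96.3 and 187 CPM in HET and at 71.2 and 52.6 CPM in WT (log2 fold change 1.19 ± 0.41, SE; edgeR adjusted p = 0.986). Its groups did not overlap, though HET 2 was far above HET 1, and the value was 0.58 without HET 2. Acsl6 had the largest fold change of its list (1.77 ± 0.79, SE) at levels of 2.34 CPM or less. Acss2, which makes acetyl-CoA from acetate, stood at 3.25 and 5.79 CPM in HET and at 2.31 and 2.56 CPM in WT, and Acacb, the mitochondrial carboxylase, at 3.44 and 6.31 CPM in HET and at 2.78 and 1.496 CPM in WT. Elovl1 lay at 21.2 and 24.3 CPM in HET and at 30.2 CPM in both WT libraries. The desaturase genes of polyunsaturated fatty acids overlapped between genotypes: Fads1 was at 56.1 and 49.1 CPM in HET and 57.0 and 46.4 CPM in WT, and Fads2 at 12.1 and 17.6 CPM in HET and 14.8 and 15.0 CPM in WT. Elovl5, Elovl7, Me1, Mid1ip1, Scd3, Scd4 and Thrsp overlapped as well, and Thrsp stayed at 1.11 CPM or less.

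Among regulators, Srebf2, the sterol branch of the SREBP family, stood at 81.9 and 104 CPM in HET and at 185 and 101 CPM in WT, so its groups overlapped. Scap, which escorts SREBP to the Golgi, and Insig1, which holds it back, overlapped too, at 49.3 and 57.3 CPM and at 27.4 and 48.3 CPM in HET, against 31.1 and 68.2 CPM and 43.4 and 31.2 CPM in WT. Prkaa1, a catalytic subunit of the AMP-activated kinase that inhibits Acaca, stood at 33.6 and 26.0 CPM in HET and at 49.5 and 45.4 CPM in WT (log2 fold change -0.67 ± 0.30, SE). Akt1, a kinase of insulin signalling, stood at 98.7 and 94.98 CPM in HET and at 144.6 and 149.9 CPM in WT (log2 fold change -0.60 ± 0.27, SE). Neither passed the edgeR test (adjusted p = 0.986 each), although their groups did not overlap. Mlxipl and Nr1h3 overlapped at 7.94 CPM or less, and Pparg, the adipocyte regulator, was at 4.35 and 2.52 CPM in HET and at 1.75 and 1.78 CPM in WT.

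**Figure D5:**
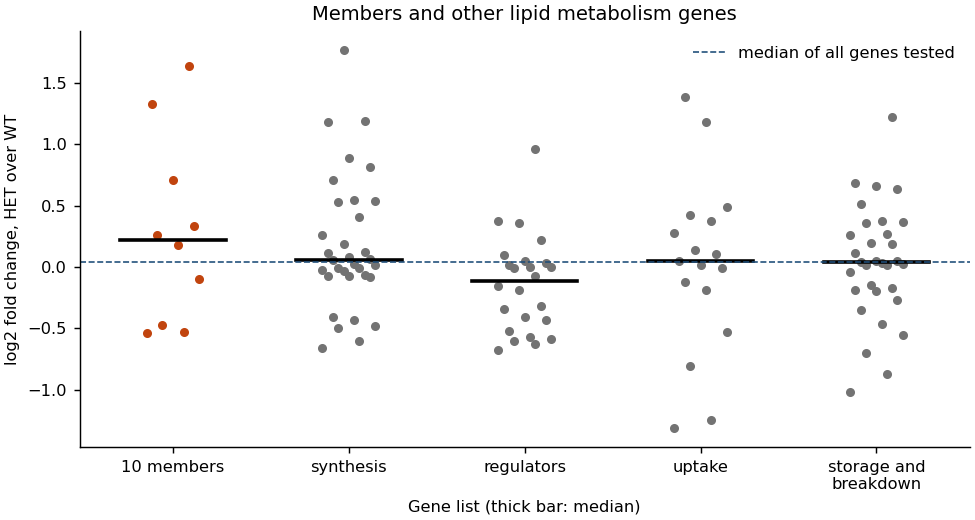
Points give HET over WT log2 fold changes (y axis), 1 for each tested gene, by list (x axis), with the 10 members in orange, thick bars at list medians and a dashed line at the median of all genes tested (0.04). List medians lie between -0.11 and 0.22, and points of every list fall on both sides of 0.

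Among uptake and storage genes, Gpihbp1 anchors lipoprotein lipase on capillary endothelium. It stood at 4.998 and 14.0 CPM in HET, against 8.35 CPM in WT 1 and 0 counts in the library labelled WT 2. Its log2 fold change was 1.18 ± 1.60 (SE) with all libraries and 0.18 without the library labelled WT 2. Without WT 1 the fit gave 10.1. The size of that value is not measured, because 0 counts were recorded in the library labelled WT 2, then the only WT library. Angptl4, an inhibitor of the lipase, was at 23.95 and 27.0 CPM in HET, against 24.7 CPM in WT 1 and 48.7 CPM in that library. The transporter genes Slc27a1 and Slc27a4 varied less, at 29.4 and 34.1 CPM and at 12.1 and 15.7 CPM in HET, against 22.7 and 26.4 CPM and 12.6 and 14.3 CPM in WT. Slc27a3 and Lrp1 were highest in the library labelled WT 2, at 31.8 and 1059 CPM, and without it the log2 fold change turned to 0.38 for Slc27a3 (-1.31 with all libraries) and to 0.15 for Lrp1 (-0.81 with all libraries). That of Angptl4 likewise turned to 0.05 (-0.53 with all libraries). Slc27a6 (log2 fold change 1.39 ± 0.97, SE; 3.01 without WT 1, 0.63 without the library labelled WT 2 and 0.39 without HET 2) and Vldlr overlapped between genotypes, and Fabp3, at 1.26 CPM or less, was not tested. Plin2, which coats lipid droplets, was at 37.1 and 49.6 CPM in HET and at 69.1 and 26.9 CPM in WT. Agpat1, an acyltransferase of phosphatidate synthesis, stood at 19.2 and 18.6 CPM in HET and at 43.3 and 25.9 CPM in WT (log2 fold change -0.87 ± 0.36, SE; -0.45 without WT 1 and -1.19 without the library labelled WT 2), and Plin3 at 23.2 and 25.2 CPM in HET and at 36.4 and 34.5 CPM in WT (-0.55 ± 0.29, SE). Dgat1 was also lower in both HET libraries (11.2 and 9.65 CPM, against 17.4 and 11.5 CPM in WT), whereas Dgat2 was higher in both at 3.76 CPM or less. Gpam, Xdh and Btn1a1, the last a milk fat globule protein at 1.34 CPM or less, overlapped between genotypes.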

How the data were processed

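The authors deposited estimated counts per gene, as whole numbers. The submitters' processing notes name Salmon and GRCm38.p5. Its version, annotation and strand setting were not given in the sources used here, so antisense reads cannot be separated. Of 51826 gene identifiers, 51633 matched GENCODE M21 (GRCm38), which gave symbols, positions and exon lengths. The table held 0 columns of other samples and 0 rows that name no gene. Groups follow the genotype label. The genotypes were tested against each other with edgeR 4.0.16 under R 4.3.3, using filterByExpr, TMM scaling and the quasi-likelihood F test over 21607 genes, with Benjamini-Hochberg adjustment and a threshold of 0.05. The procedure was tested on simulated data. SE is the absolute log2 fold change divided by the square root of F. With 2 libraries per genotype an exact two-sided permutation test cannot give a p under 0.333. Alternatives used DESeq2 1.42.0 and limma 3.58.1 (voom), other scalings, filters and gene lengths, and left out each library in turn on the same genes, taking the remaining single library to be as variable as the pair. The members and lists were chosen with earlier results of these data known. Named genes were the 10 members, Elf5, a set list of 34 lipid genes and up to 2 further genes of smallest p per list. Motif searches used the RefSeq window table (GRCm38.p6).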

Additional observations from a re-analysis of the deposited data

How the results depend on the processing

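Over all genes the edgeR count of 0 became 324 with no filter beyond 1 count and 134 in DESeq2, and lay between 0 and 657 without single libraries (657 without WT 1, 9 without the library labelled WT 2). The median log2 fold change of the 10 genes, 0.22, lay between -0.17 (without HET 2) and 0.32 without single libraries. Medians without single libraries lay between -0.055 and 0.10 for synthesis genes, -0.28 and -0.094 for regulators, -0.22 and 0.27 for uptake genes, and -0.10 and 0.18 for storage genes. With upper-quartile scaling the synthesis median was 0.14 and the regulator median -0.031, and with no filter they were -0.029 and -0.21. The regulator median was -0.16 with RLE scaling and in DESeq2. The median level per length of the 10 genes, 12.7 CPM per kilobase with merged exons, was 24.95 with median coding transcript lengths and 17.9 with principal transcripts. Signs turned for Fasn without WT 1 (-0.09) and without HET 2 (-0.16), for Srebf1 without HET 2 (-0.22), for Lpl (0.0019) and Lrp1 (0.15) without the library labelled WT 2, and for Elf5 without WT 1 (0.76). Without single libraries the values lay between -0.16 and 0.51 for Fasn, -0.22 and 1.21 for Srebf1, -0.19 and 0.0019 for Lpl, -2.16 and 0.76 for Elf5, and -1.38 and 0.15 for Lrp1. Calls were gained for Cd36 (5.20) and Fabp4 (3.30) without WT 1, and for Fabp4 with no filter (1.61). These alternatives were run for 20 genes, and Gpihbp1 was not among them. The other 233 values of the 20 genes kept their sign and stayed on the same side of the threshold. Where a setting called 0 genes in the whole table, staying on that side held for every gene tested. Of 32 further named genes tested, 19 turned sign without at least 1 library, such as Plin2 (-0.15, and 0.69 without WT 1) and Me1 (0.12, and -0.31 without WT 1). The cause of these changes was not tested. No paired analysis was possible because the labels give no numbers shared between genotypes. Depth limits genes under about 3 counts.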
